A study of Mus musculus with 16 samples.

Results

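The transcripts of 10 genes around the coactivator YAP were followed through 16 RNA-seq libraries of a mouse kidney epithelial cell line in which Pkd2 can be deleted with doxycycline (DOX). The 10 genes were taken from a list of symbols and matched by Ensembl identifier to a table of raw counts per gene with 55536 genes. They were the coactivators Yap1 and Wwtr1 (the gene of TAZ), their DNA-binding partner Tead1, the target genes Ankrd1, Ccn1 and Ccn2 (Cyr61 and Ctgf in older annotation), the kinase gene Lats2, its upstream regulator Wwc1 (KIBRA), and the angiomotin family genes Amotl1 and Amotl2. All 10 were found and all 10 passed the filter on low counts, which left 15316 genes for testing. The list names genes and sets no threshold on a measured value, but it was chosen with earlier results of these data known. The smallest count of any of the 10 in any library was 185.

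The cells are an inner medullary collecting duct line made from an inducible Pkd2 knockout mouse, and the series asks which transcripts respond early to the loss of this gene. Its product, polycystin-2, conducts cations and sits in cilia, and inherited mutations in the human gene cause polycystic kidneys. At passage 4 and at passage 7 the epithelium was held on permeable supports for 10 days in a medium with serum, either with DOX at 2 ug/mL during 6 days or without it. The 4 groups of 4 libraries were therefore passage 4 without DOX, passage 4 with DOX, passage 7 without DOX and passage 7 with DOX. All 16 carry the same inducible system by title, while the genotype label reads wild type without DOX and knockout with it. Because no group received DOX without the inducible system, effects of the drug and of the deletion cannot be told apart. The labels name 1 line and do not say that replicates were separate cultures, so the p-values measure the spread between these libraries, which may be technical.

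YAP and TAZ carry signals of cell shape, tension and crowding into the nucleus, where they switch on genes together with TEAD proteins, which bind the DNA. The Hippo kinases hold them back: the kinases MST1 and MST2 activate LATS1 and LATS2, which phosphorylate YAP and TAZ and keep them in the cytoplasm, and KIBRA and the angiomotins help them do so. Several of these inhibitors, LATS2 and AMOTL2 among them, are themselves targets of YAP, so the pathway feeds back on itself. In kidney tubules YAP activity has been studied in cyst growth. RNA levels report on the genes and not on the phosphorylation or location of the proteins.

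Pkd2 was measured first, as a check of the DOX labels. It stood at 140.1 ± 4.24 CPM (counts scaled to a common library size by the TMM method; SD, n = 4) at passage 4 without DOX and at 52.7 ± 3.98 with DOX. At passage 7 it stood at 185 ± 1.402 without and 56.7 ± 8.07 with DOX. The log2 fold changes were -1.41 (SE 0.078, adjusted p = 8.8e-10) and -1.71 (SE 0.078, adjusted p = 4.3e-11), and each library matched its DOX label. With DOX the passages overlapped in Pkd2 (47.8 to 57.4 CPM at passage 4, 47.6 to 65.9 at passage 7). Pkd2 thus checks neither the passage of those libraries nor any replicate number. Libraries held 9937504 to 17188295 counts. In all 4 groups replicates 1 and 2 resembled each other, and replicates 3 and 4 each other, more than libraries of different pairs did. The labels do not explain this split, and its values stand beside the results. Of the markers, 6 epithelial keratin and adhesion genes summed to 6367 to 6588 CPM without and 5439 to 6063 with DOX at passage 4, and to 7205 to 8072 and 6832 to 7436 at passage 7. The 10 principal cell markers summed to 108.4 to 147.5 and 141.7 to 177.6 CPM at passage 4, and to 171.5 to 195.2 and 197.7 to 240.0 at passage 7, most of it Scnn1a, while Aqp2, the defining water channel of principal cells, was at 0 in every library. Of the 6 principal cell markers tested, 1 was higher and 3 were lower with DOX averaged over the passages (edgeR, adjusted p under 0.05). Among all tested genes 15.7% were higher and 16.6% lower. The median log2 fold change of the 6 was -0.64, so the sum does not describe the single markers. The line thus showed epithelial but not full principal cell markers. The 6 intercalated cell markers summed to 13.8 to 29.5 CPM at passage 4 and 6.55 to 13.04 at passage 7, and the 6 proximal tubule markers to 9.71 to 13.4 over all libraries. Fibroblast, endothelial and loop or distal tubule lists summed to at most 6.61, 0.401 and 1.00 CPM. Of 6 leukocyte markers, Adgre1 and Itgam were at 0 in every library, and the sum of the list ran from 169.5 to 188.6 CPM at passage 4 and from 193.9 to 208.6 at passage 7 without DOX, against 123.3 to 166.2 and 113.9 to 127.4 with DOX. That sum came mostly from Cd14. The part of these markers in the results was not tested. In bulk RNA, fewer cells of a type and less RNA per cell cannot be told apart.

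The DNA before the start sites was searched for letters known as binding motifs. RefSeq windows of 250 bases before the start were found for 8 of the 10 genes (GRCm38.p6), not for Ccn2 and Tead1. The core TEAD motif GGAATG, read on either strand, occurred in windows of 5 of these 8 genes, Yap1, Wwtr1, Ankrd1, Ccn1 and Amotl2, against 12.6% of all 32544 windows of that length. The 8 genes had 10 windows between them, so this share per window is not a share per gene. None of the 8 held the AP-1 motif TGANTCA (6.73% of all windows) or a CArG box, the site of SRF (1.48% of all windows). Printed here are the windows of Ccn1, which had a motif, and of Wwc1, which had none; both genes were lower with DOX at both passages. Each runs 5′ to 3′ on the strand of the gene and ends at the base before the RefSeq start. Capitals mark the TEAD motif (written CATTCC where it lies on the opposite strand) and the TATA box TATAAA, which 12.3% of all windows hold; the motifs do not overlap. Their places are chr3:145649986-145650235 for Ccn1 and chr11:35980528-35980777 for Wwc1, both on the minus strand.
Ccn1: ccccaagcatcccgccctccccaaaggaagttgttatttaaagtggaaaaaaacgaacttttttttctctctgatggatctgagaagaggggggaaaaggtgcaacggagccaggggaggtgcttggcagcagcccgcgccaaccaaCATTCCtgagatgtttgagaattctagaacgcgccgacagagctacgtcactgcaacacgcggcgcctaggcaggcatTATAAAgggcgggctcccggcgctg
Wwc1: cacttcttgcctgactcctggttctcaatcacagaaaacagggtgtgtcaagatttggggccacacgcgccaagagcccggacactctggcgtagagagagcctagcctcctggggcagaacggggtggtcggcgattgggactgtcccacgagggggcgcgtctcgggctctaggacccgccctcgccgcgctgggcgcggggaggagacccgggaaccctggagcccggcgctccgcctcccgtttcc
In Ankrd1 the motifs began 210 and 123 bases before the start, in Ccn1 103, in Amotl2 65 and in Yap1 141. These starts are those of RefSeq. The start of Ankrd1 lies 255 bases and that of Amotl2 1132 bases inside the Ensembl bounds given for these genes, so their windows overlap annotated exons and are not printed, while those of Ccn1 and Wwc1 lie within 4 bases of the bounds. The start of Amotl1 lies 30056 bases inside its bound, and those of Lats2 lie 12265 and 23970 bases inside. The windows of Amotl1 and Lats2, which held no TEAD motif, are thus far from the outer bounds of these genes. A match is a run of letters, not a measured site, and its absence from a window of this length says nothing of binding elsewhere.

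With DOX, 5 of the 10 genes were lower at passage 4 and none was higher (edgeR, adjusted p under 0.05), where 9.1% of all tested genes were lower and 8.45% higher. The 5 were Ccn1, Ankrd1, Wwc1, Lats2 and Amotl2. At passage 7, 4 were lower, against 11.6% of all genes, and none was higher, against 11.1%. They were Ankrd1, Ccn1, Wwc1 and Tead1. Averaged over both passages, 7 were lower and none higher, against 16.6% and 15.7% of all genes, and Yap1, Ccn2 and Amotl1 were not called. Only Ankrd1, Ccn1 and Wwc1 of the 10 were called lower at both passages, against 6.08% of all genes, and in these 3 the highest of the 8 libraries with DOX was lower than the lowest of the 8 without it, as in 2.66% of all genes. Libraries with and without DOX did not overlap in 6 of the 10 at passage 4 and in 4 at passage 7, each time with DOX on the lower side, against 11% and 12.8% of all genes. The median log2 fold change of the 10 was -0.22 at passage 4, -0.26 at passage 7 and -0.23 averaged, beside medians of 0.00059, -0.0078 and -0.0031 over all tested genes. With replicate number as a block in the fit, 7 of the 10 were lower at passage 4 (all genes 14%) and 6 at passage 7 (all genes 16.5%). Because the 10 genes were chosen with earlier results of these data known, these counts are descriptive and do not measure an excess over all genes.

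**Figure D1:**
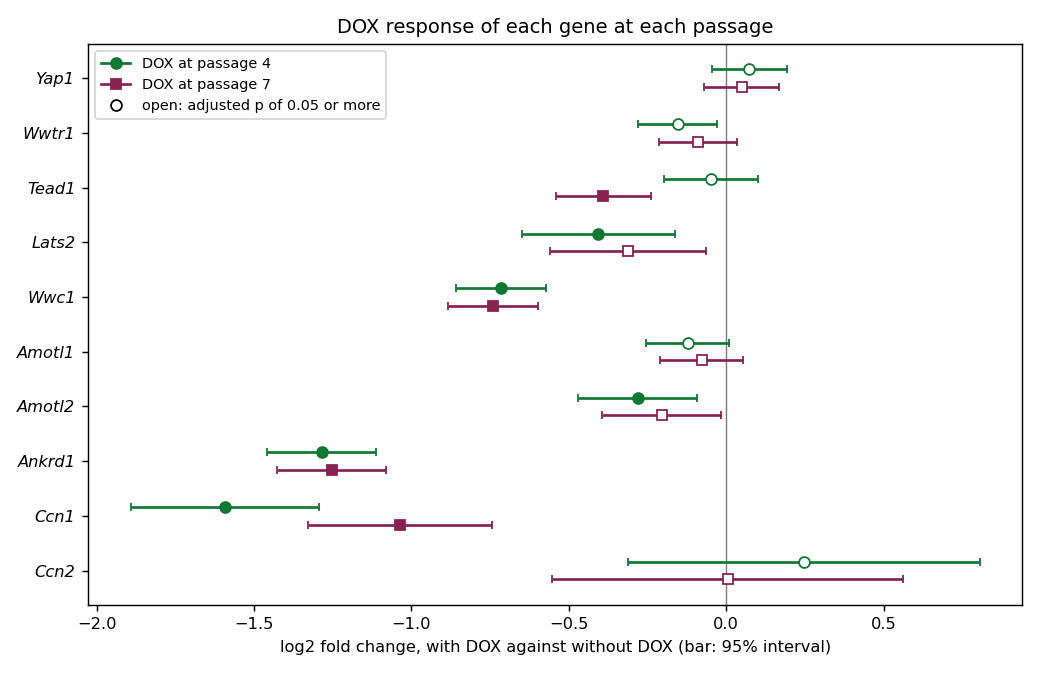
Log2 fold change with DOX against without DOX (horizontal axis) of each of the 10 genes at passage 4 (circles) and passage 7 (squares), with 95% intervals; filled symbols passed the adjusted p of 0.05. Ankrd1, Ccn1 and Wwc1 lie far to the left at both passages, Yap1 and Ccn2 straddle 0, and Tead1 is filled at passage 7 only.

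Ankrd1 (chromosome 19, 36111961 to 36120099, minus strand), which encodes a repeat protein of muscle and nucleus used as a readout of YAP activity, was among the most changed of the 10. At passage 4 without DOX its replicates 1 to 4 stood at 531, 525, 457 and 538 CPM, and with DOX at 198, 183, 219.5 and 241. At passage 7 they stood at 573, 528, 471 and 484 without and 223, 225, 213 and 202 with DOX. The lowest library without DOX was thus far above the highest with it, at both passages. The level with DOX was 41.02% of that without at passage 4, a log2 fold change of -1.29 (SE 0.082, adjusted p = 4.6e-09), and 41.9% at passage 7, -1.25 (SE 0.082, adjusted p = 4.5e-09). The responses at the 2 passages differed by 0.032 (95% interval -0.21 to 0.27, adjusted p = 0.96).

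Ccn1 (chromosome 3, 145646976 to 145649981, minus strand) encodes a secreted matricellular protein that binds integrins. At passage 4 its libraries read 339, 324, 249 and 307 CPM without DOX and 89.3, 93.4, 99.2 and 123 with DOX. At passage 7 they read 384, 377, 286 and 337 without and 137, 149.5, 201 and 186 with DOX. No library with DOX reached the lowest one without, but the libraries of passage 7 with DOX all lay above those of passage 4 with DOX. The level fell to 33.2% at passage 4, -1.59 (SE 0.14, adjusted p = 1e-06), and to 48.7% at passage 7, -1.04 (SE 0.14, adjusted p = 5.2e-05). The difference between these responses was 0.56 with a 95% interval of 0.14 to 0.97 and did not pass the adjusted threshold (adjusted p = 0.23).

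Ccn2 (chromosome 10, 24595442 to 24598683, plus strand), which encodes the related secreted protein CTGF and is as widely used a target of YAP, was not called lower or higher. Without DOX it stood at 1056, 1122, 1411 and 1842 CPM at passage 4 and 1264, 1239.8, 1702 and 1870.0 at passage 7. With DOX the libraries read 1212, 973, 2038 and 2224 at passage 4 and 1414, 1364, 1813 and 1502 at passage 7. In each of the 4 groups replicates 3 and 4 lay above replicates 1 and 2, and the groups overlapped. The log2 fold change with DOX was 0.25 (95% interval -0.31 to 0.81, adjusted p = 0.59) at passage 4 and 0.0043 (-0.55 to 0.56, adjusted p = 0.99) at passage 7. The averaged interval, -0.27 to 0.52, holds neither the averaged change of Ankrd1, -1.27, nor that of Ccn1, -1.31. Gm15270, annotated on the opposite strand, shares 665 of the 2861 exon bases of Ccn2 and held 4475 to 10813 counts, 35.1% to 38.0% of the count of Ccn2 in every library. How strand was handled in counting is unknown here, so reads of the pair may not be separated. Their sum gave the same calls as Ccn2 alone in 6 of 6 comparisons. With so even a share in every library the sum could hardly do otherwise, so it does not show whether reads were separated.

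Within a library the log2 ratio of the 2 related genes, Ccn1 over Ccn2, was lower in each library with DOX than in any without it. At passage 4 it was -1.63 ± 0.48 without and -3.42 ± 0.44 with DOX (SD, n = 4), and at passage 7 -1.62 ± 0.47 and -2.68 ± 0.14. The exact 2-sided permutation test gave p = 0.0286 each time, the smallest that 4 against 4 libraries allow, and 0.0857 after Benjamini-Hochberg adjustment over the 6 ratios computed. The ratio Yap1 over Wwtr1 was 0.23 higher with DOX at passage 4 (exact permutation p = 0.114) and 0.14 higher at passage 7 (exact p = 0.171). For Amotl1 over Amotl2 the differences were 0.15 (exact p = 0.114) and 0.12 (exact p = 0.171). The permutations took no account of replicate number. Replicates 3 and 4 differed from 1 and 2 by -0.10 in Yap1 and 0.13 in Wwtr1 on the log2 scale. That split widens the spread of their ratio within groups, so these p-values cannot show that the ratio was unchanged. A shift within replicate numbers was not tested.

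**Figure D2:**
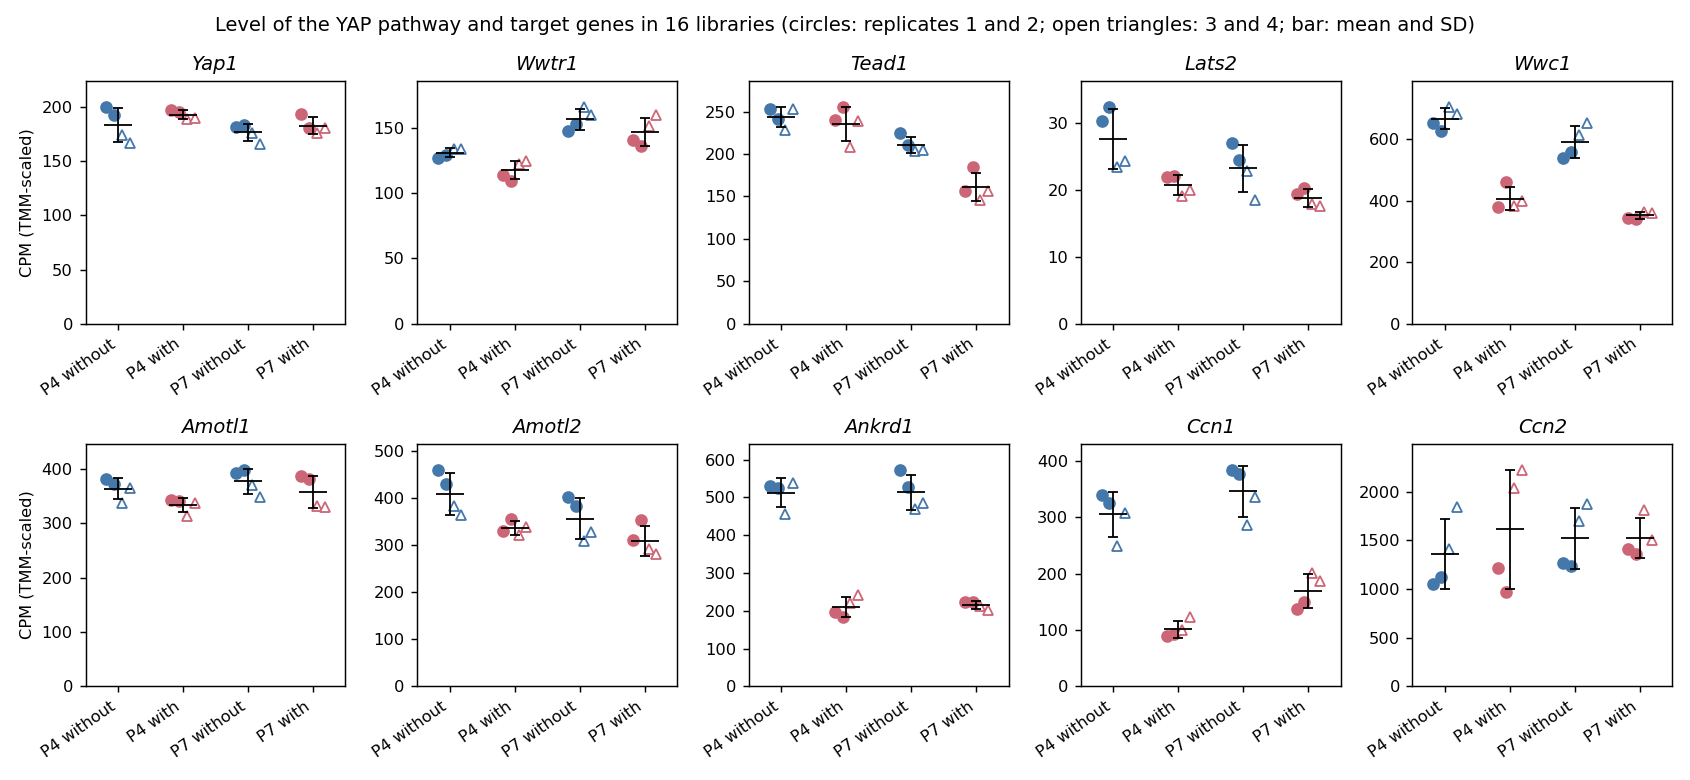
CPM of each of the 10 genes (vertical axes from 0) in the 4 groups of 4 libraries, P4 and P7 for the passages, with the group mean and SD as bars; blue is without and red with DOX. Ankrd1, Ccn1 and Wwc1 separate by color, while in Ccn2 the open triangles (replicates 3 and 4) lie above the circles (replicates 1 and 2) in every group.

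Differences in the genes of the coactivators themselves were small. Yap1 (chromosome 9, 7931999 to 8004596, minus strand) read 200.03, 193, 174 and 167 CPM without and 198, 195, 189 and 189.9 with DOX at passage 4, and 182, 183, 176 and 166 without and 194, 181, 176 and 181 with DOX at passage 7. The groups overlapped at both passages. Its log2 fold change was 0.074 (95% interval -0.046 to 0.19, adjusted p = 0.43) and 0.049 (-0.07 to 0.17, adjusted p = 0.6). Gm20416, on the opposite strand, shares 116 exon bases with Yap1 and held 128 to 255 counts.

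Wwtr1 (chromosome 3, 57455649 to 57575910, minus strand) read 127, 129, 133 and 134 CPM without and 114, 109, 122 and 125 with DOX at passage 4. These 2 groups did not overlap, and the log2 fold change of -0.15 (SE 0.06, adjusted p = 0.084) missed the threshold, though a fit with a block per replicate number passed it (adjusted p = 0.0096). At passage 7 the libraries read 147, 153, 166 and 159 without and 140.2, 136, 151 and 159 with DOX and overlapped, at -0.09 (SE 0.059, adjusted p = 0.31). Averaged over the passages Wwtr1 was called lower, -0.12 (SE 0.042, adjusted p = 0.032). This call was lost in 8 of 16 fits that each left out 1 library, with adjusted p up to 0.077: without replicates 3 or 4 of either group without DOX, and without replicates 1 or 2 of either group with DOX.

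Tead1 (chromosome 7, 112679318 to 112906807, plus strand) encodes a TEAD protein through which YAP and TAZ reach DNA. It read 253, 241, 228 and 253 CPM without and 241, 255, 208 and 238 with DOX at passage 4, which overlapped, at -0.048 (SE 0.071, adjusted p = 0.71). At passage 7 all 4 libraries with DOX, at 156, 185, 146 and 156, lay below those without, at 224, 210.3, 203 and 205. The level fell to 76.3%, a log2 fold change of -0.39 (SE 0.072, adjusted p = 0.00057). The response at passage 7 minus that at passage 4 was -0.34 (95% interval -0.55 to -0.13), which did not pass after adjustment (adjusted p = 0.13) and did with the block (adjusted p = 0.0076). It also passed without replicate 3 of passage 4 with DOX (-0.40, adjusted p = 0.044) and without replicate 2 of passage 7 with DOX (-0.42, adjusted p = 0.033).

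Wwc1 (chromosome 11, 35838400 to 35980527, minus strand) encodes KIBRA, a scaffold that promotes LATS activation. At passage 4 it read 652, 626, 704 and 681 CPM without and 379, 459.5, 383 and 399 with DOX, and at passage 7 538, 557, 612 and 651 without and 344, 341, 364 and 359.6 with DOX. The highest library with DOX was below the lowest without. The level fell to 60.9% at passage 4, -0.72 (SE 0.068, adjusted p = 5.2e-07), and to 59.8% at passage 7, -0.74 (SE 0.068, adjusted p = 2.5e-07). These responses differed by -0.027 with a 95% interval of -0.23 to 0.17.

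Lats2 (chromosome 14, 57689662 to 57758388, minus strand), a kinase that inhibits YAP, was the least abundant of the 10. At passage 4 it read 30.4, 32.4, 23.4 and 24.3 CPM without and 21.9, 22.1, 19.1 and 20.03 with DOX, without overlap, and fell to 75.5%, a log2 fold change of -0.41 (SE 0.12, adjusted p = 0.019). At passage 7 it read 26.98, 24.5, 22.8 and 18.6 without and 19.4, 20.3, 17.8 and 17.6 with DOX, which overlapped through replicate 4 without DOX, and the change of -0.31 (SE 0.12, adjusted p = 0.065) was called with the block (adjusted p = 0.0063). The call at passage 4 was lost without replicate 1 or 2 without DOX or replicate 3 or 4 with DOX, at adjusted p of 0.051 to 0.083. The annotation has a second coding gene model on the same strand, Gm49361, that shares 2955 of the 6971 exon bases of Lats2 and was at 0 in every library, so the level of Lats2 may be understated.

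Amotl2 (chromosome 9, 102716672 to 102733418, plus strand) encodes an angiomotin-like protein of cell junctions that binds YAP. It read 460.1, 429, 383 and 363 CPM without and 329, 356, 321 and 338 with DOX at passage 4, without overlap, and fell to 82.3%, -0.28 (SE 0.09, adjusted p = 0.038). At passage 7 it read 402, 383, 309 and 329 without and 310.3, 353, 291 and 280.3 with DOX, with overlap, a log2 fold change of -0.21 (SE 0.09, adjusted p = 0.12), called with the block (adjusted p = 0.007). The passage 4 call was lost in 5 of the 8 fits that left out 1 library of these groups, namely replicate 1 or 2 without DOX and replicate 1, 3 or 4 with DOX, at adjusted p of 0.071 to 0.13. At passage 7 it was gained without replicate 3 without DOX or replicate 2 with DOX.

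Amotl1 (chromosome 9, 14541966 to 14645056, minus strand), a second member of the family, read 381, 371, 336 and 364 CPM without and 343, 340.1, 314 and 337 with DOX at passage 4, and 391, 398, 370.4 and 347 without and 386, 380.1, 332 and 330.1 with DOX at passage 7. The groups overlapped at both passages. Its averaged change was -0.10 (95% interval -0.19 to -0.0074, adjusted p = 0.093), which passed with the block (adjusted p = 0.013), as did that at passage 4 (adjusted p = 0.045).

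Levels were compared between genes as CPM per kilobase of exon. Without DOX at passage 4, Ccn2 was highest at 475 ± 125 (SD, n = 4), followed by Ankrd1 at 178 ± 13.04, Ccn1 at 151 ± 19.5 and Wwc1 at 134 ± 6.78. Ankrd1 overlapped Ccn1, and Ccn1 overlapped Wwc1. Amotl2 followed at 65.01 ± 6.997, Amotl1 at 36.1 ± 1.91 and Wwtr1 at 27.4 ± 0.728. Yap1, at 19.8 ± 1.67, and Tead1, at 17.96 ± 0.873, overlapped, and Lats2 was lowest at 3.96 ± 0.637. Ccn2 stayed highest and Lats2 lowest in all 4 groups. With DOX at passage 4 the second place went to Wwc1 at 81.7 ± 7.503, overlapping Ankrd1 at 72.9 ± 8.85, and Ccn1, at 50.1 ± 7.39, overlapped Amotl2, at 53.5 ± 2.38. With DOX at passage 7 Ccn1, Ankrd1 and Wwc1 stood at 83.4 ± 14.9, 74.7 ± 3.56 and 71.03 ± 2.29, each overlapping the next. Wwtr1 exceeded Yap1 per kilobase in every group.

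None of the 10 genes was called for a difference of the DOX response between the passages (edgeR), where 1.19% of all tested genes were. At an unadjusted p under 0.05 there were 2, Tead1 and Ccn1, against 11.5% of all genes, and DESeq2 also called 0 after adjustment. The block called 1, Tead1, where it called 4.67% of all genes.

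Some of the genes differed between passages, in both directions. Without DOX, 1 of 10 was higher at passage 7 than at passage 4 and 1 was lower, against 14.3% and 11.3% of all genes. Wwtr1 was the higher one, 0.26 (SE 0.059, adjusted p = 0.0039), and Tead1 the lower one, -0.21 (SE 0.071, adjusted p = 0.038), and neither pair of groups overlapped (14.6% of all genes were higher and 12.3% lower without overlap). The Tead1 call was lost in 6 fits that left out 1 library, at adjusted p of 0.063 to 0.093: without replicate 1, 2 or 4 of passage 4 or replicate 2, 3 or 4 of passage 7, all without DOX. With the block 5 genes were called (all genes 37%), with Amotl2, Lats2 and Wwc1 added on the lower side. With DOX, 2 genes were higher at passage 7, Wwtr1 at 0.32 (SE 0.059, adjusted p = 0.00042) and Ccn1 at 0.74 (SE 0.14, adjusted p = 0.00077), and 2 were lower, Tead1 at -0.55 (SE 0.072, adjusted p = 1.3e-05) and Wwc1 at -0.20 (SE 0.068, adjusted p = 0.028), against 18.3% higher and 15.8% lower among all genes. All 4 did so without overlap, as 17.5% and 14.9% of all genes did. With the replicate pair as a term Amotl2 was called lower too, -0.13 (adjusted p = 0.048). The comparisons of passage share their libraries with those of DOX. The Wwc1 call did not hold without replicate 2 of passage 4 with DOX (-0.14, adjusted p = 0.12) or replicate 1 or 2 of passage 7 with DOX (adjusted p = 0.065 and 0.068). Yap1 passed in neither comparison, at -0.054 (adjusted p = 0.53) and -0.078 (adjusted p = 0.31), and Ankrd1 neither, at 0.004 and 0.036.

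The split of the replicates touched 7 of the 10 genes, against 36.9% of all genes. With group held constant, replicates 3 and 4 exceeded replicates 1 and 2 in Ccn2 by 0.58 (SE 0.10, adjusted p = 0.00063) on the log2 scale and in Wwtr1 by 0.13 (SE 0.029, adjusted p = 0.0014). They were lower in Lats2, -0.26 (SE 0.055, adjusted p = 0.00042), and Amotl2, -0.21 (SE 0.037, adjusted p = 8.9e-05), and by smaller amounts in Amotl1, Tead1 and Yap1. Ankrd1, -0.034 (SE 0.056, adjusted p = 0.67), Ccn1, 0.027 (SE 0.11, adjusted p = 0.87), and Wwc1, 0.076 (SE 0.04, adjusted p = 0.15), the 3 genes called at both passages, were not called for the split. What the split stands for was not tested.

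The DOX response was next taken within replicates 1 and 2 and within replicates 3 and 4. For Ccn1 at passage 4 it was -1.86 (SE 0.12) in replicates 1 and 2 and -1.32 (SE 0.12) in replicates 3 and 4, and at passage 7 -1.41 (SE 0.12) and -0.68 (SE 0.12). Ankrd1 gave -1.47 (SE 0.065) and -1.11 (SE 0.065) at passage 4 and -1.30 (SE 0.065) and -1.20 (SE 0.065) at passage 7. Wwc1 gave -0.61 (SE 0.061) and -0.82 (SE 0.061), then -0.68 (SE 0.062) and -0.80 (SE 0.061). These 3 genes were thus called lower in each pair of replicates at each passage. Ccn2 was called in neither pair, with 0.0045 (SE 0.15) and 0.39 (SE 0.15) at passage 4 and 0.15 (SE 0.15) and -0.11 (SE 0.15) at passage 7. Yap1 at passage 4 was 0.0017 (SE 0.052) in replicates 1 and 2 and 0.15 (SE 0.052) in replicates 3 and 4, where it was called higher (adjusted p = 0.036). Over the 10 genes, 7 were called at passage 4 in replicates 1 and 2 (all genes 24.3%) and 5 in replicates 3 and 4 (all genes 21.6%). At passage 7 they were 6 (all genes 22.5%) and 5 (all genes 28%). Whether a response differs between the pairs was not tested.

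**Figure D3:**
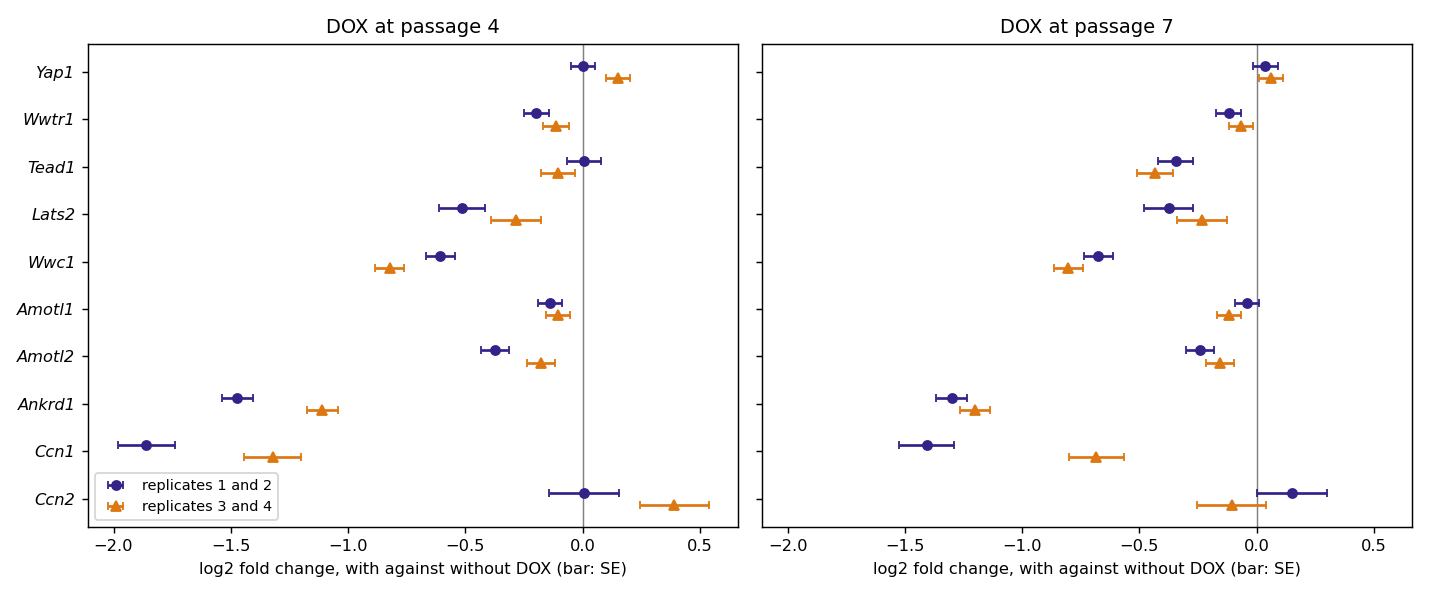
Log2 fold change with DOX against without DOX (horizontal axes, bars are SE) within replicates 1 and 2 (circles) and within replicates 3 and 4 (triangles), at passage 4 (left) and passage 7 (right). Ankrd1, Ccn1 and Wwc1 are below 0 in both pairs at both passages, and the pairs lie furthest apart for Ccn1 at passage 7, at -1.41 and -0.68.

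By the root mean square difference of centred log2 CPM over the 16 libraries, the tested genes of at least 5 CPM most like Ankrd1 in pattern were Lhfp (0.172), Gdf11 (0.194) and Bicc1 (0.1998), on a scale where Ankrd1 itself spanned 1.65. Among those nearest to Ccn1, which spanned 2.10, were Col4a2 (0.274) and, at like distances, Pkd2 (0.297), Ankrd1 (0.297) and Filip1l (0.297). Nearest to Wwc1, which spanned 1.04, were Tacc2 (0.116), Tmem176a (0.117) and Tns3 (0.121). All of these fell with DOX on average, from -1.56 for Pkd2 to -0.57 for Tacc2. Genes with symbols of Gm and a number, or ending in Rik, were left out of these rankings. The measure describes these libraries and includes the response to DOX.

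The wider pathway was read from lists of its genes, which include some of the 10. Counts are for DOX averaged over the passages, where 15.7% of all genes were higher and 16.6% lower. With the replicate block these shares were 20.2% and 21.7%, and the counts with the block are given where they differ. Genes that the block adds are named after their values were seen. Of 10 coactivator and TEAD partner genes 8 were tested, of which 2 were higher and 5 lower. Without Yap1, Wwtr1 and Tead1, 5 were tested, of which 2 were higher and 3 lower. Beyond Tead1 and Wwtr1, the lower ones were Tead3, -0.26 (SE 0.047, adjusted p = 0.00028), Tead2, -0.22 (adjusted p = 0.026), and Vgll3, a TEAD cofactor at under 3 CPM, -0.76 (adjusted p = 0.0054). Tead4, 0.34 (adjusted p = 0.0067), and Vgll4, which competes with YAP for TEAD, 0.29 (adjusted p = 0.015), were higher. The Tead2 call was lost in 5 of 16 fits that left out 1 library.

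All 14 genes of the Hippo kinase core were tested, and 3 were higher and 4 lower. Without Lats2, 3 were higher and 3 lower of 13. Stk3, the gene of MST2, fell from 56.8 ± 1.87 to 44.6 ± 2.15 CPM at passage 4 and from 52.7 ± 1.88 to 43.6 ± 1.24 at passage 7, -0.31 (SE 0.039, adjusted p = 4.8e-06). Taok3, -0.23 (adjusted p = 0.00079), a kinase upstream of MST, was lower too. Map4k5, 0.28 (adjusted p = 5e-05), Mob1a, 0.25 (adjusted p = 9.2e-05), a LATS cofactor, and Lats1, 0.22 (adjusted p = 0.026), were higher. Lats1 and Lats2 were thus called in opposite directions, but the Lats1 call was lost in 7 of 16 fits that left out 1 library. The scaffold gene Sav1 read -0.01 (adjusted p = 0.86). By passage, Map4k5 was called at passage 4 (0.43, adjusted p = 5.9e-05) and not at passage 7 (0.14, adjusted p = 0.13). Taok3 was called at passage 7 (-0.31, adjusted p = 0.0015) and not at passage 4 (-0.14, adjusted p = 0.16). Averaged with the replicate block, 4 were higher and 6 lower: Mob1b was added on the higher side (0.19, adjusted p = 0.18 without and 0.00044 with the block), and Taok1 (-0.15, 0.33 and 0.00067) and Stk38l (-0.11, 0.11 and 0.03) on the lower side.

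Of 26 upstream regulators 24 were tested, 3 higher and 7 lower. Without Wwc1, Amotl1 and Amotl2, 21 were tested, 3 higher and 5 lower. Amot, the founding angiomotin, fell from 144 ± 9.88 to 108 ± 17.8 CPM at passage 4 and from 95.2 ± 6.22 to 72.7 ± 6.56 at passage 7, -0.40 (SE 0.067, adjusted p = 0.00014). All 3 angiomotin genes had negative values, and Amotl1 did not pass. Sike1, -0.23 (adjusted p = 0.0011), Pals1, a polarity gene, -0.28 (adjusted p = 0.0046), and Limd1, -0.14 (adjusted p = 0.011), were lower, and Strn, a subunit of the STRIPAK phosphatase complex, was higher, 0.21 (adjusted p = 0.0028). Wwc1 had the largest change of the list, and its paralog Wwc2 did not pass, at -0.026 (adjusted p = 0.62). With the replicate block 4 were higher and 9 lower, with Wtip (0.11, adjusted p = 0.11 without and 0.044 with the block) added on the higher side and Strn3 (-0.12, 0.26 and 0.0054) and Amotl1 on the lower side.

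A 22-gene list of YAP and TAZ targets had 20 tested genes, of which 12 were lower and 4 higher, with a median log2 fold change of -0.25. The list holds 5 of the 10 genes described above, and among its 15 other tested genes 8 were lower and 4 higher, with a median of -0.22. F3, the gene of tissue factor, fell from 401 ± 53.4 to 232 ± 15.7 CPM at passage 4 and from 405 ± 44.2 to 241 ± 20.5 at passage 7, -0.77 (SE 0.066, adjusted p = 6.4e-08). Nuak2, a kinase gene, went from 116 ± 18.3 to 52.8 ± 8.996 and from 108 ± 8.03 to 66.1 ± 8.06, -0.91 (SE 0.088, adjusted p = 4.9e-07). Other targets rose. Nt5e, the gene of the ecto-enzyme CD73, went from 14.96 ± 3.09 to 21.9 ± 2.09 and from 29.9 ± 2.76 to 63.3 ± 2.59 CPM, 0.82 (SE 0.079, adjusted p = 2.3e-07), and Igfbp3, a binding protein of insulin-like growth factors, rose, 0.76 (SE 0.072, adjusted p = 2e-07). Dock5 was higher as well, 0.50 (adjusted p = 2.1e-06). Fjx1, named after its values were seen, had the lowest value, -1.50 (adjusted p = 0.0036), from 1.08 ± 0.346 to 0.4799 ± 0.158 CPM at passage 4 and from 0.725 ± 0.419 to 0.198 ± 0.148 at passage 7. With the replicate block 13 were lower and 4 higher, with Rbms3 added (-0.22, adjusted p = 0.1 without and 0.021 with the block). The targets therefore did not move one way, and Ccn2, the most abundant by CPM per kilobase of the 10 genes, was among the 4 of the list that were not called without the block.

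**Figure D4:**
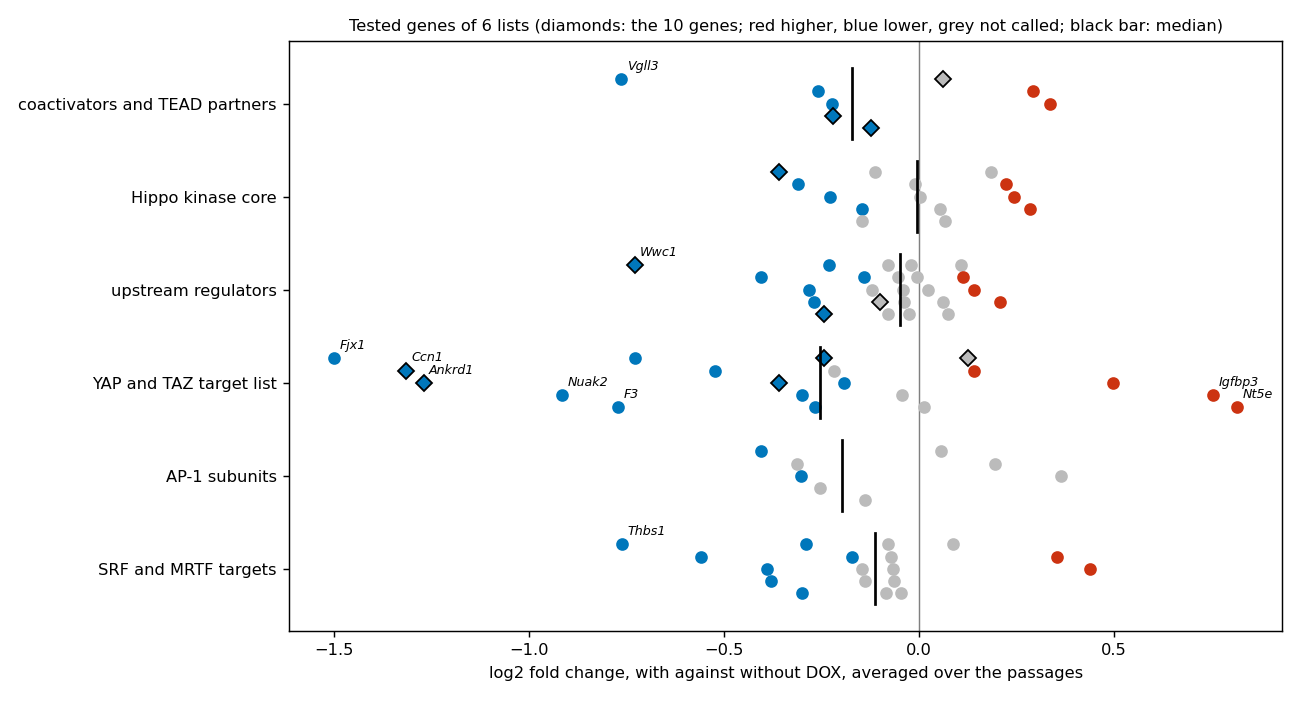
Log2 fold change with DOX against without DOX, averaged over the passages (horizontal axis), of the tested genes of 6 lists (vertical axis); diamonds are the 10 genes, red is called higher, blue called lower, grey not called, and the black bar is the median of the list. The target list spreads widest, with Fjx1, Ccn1 and Ankrd1 beyond -1.2 and Igfbp3 and Nt5e above 0.7, and its median of -0.25 lies left of 0.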

How the data were processed

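Per the labels' protocols, poly(A) RNA was made into strand-marking libraries, read as pairs of 75 bases and aligned to GRCm38.p6 with STAR 2.6.0c. The authors deposited raw counts per gene, whole numbers of 9937504 to 17188295 per library, and TPM values; the counting tool, its strand setting and the making of the TPM are not given in the sources used here. All 16 TPM columns correlated best with the count column at the same place (r at least 0.998, next best at most 0.918), but 12 headers name another library, so the TPM served only as an alternative as headed, on log2(TPM + 1) with limma 3.58.1.

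Identifiers matched GRCm38 for all 55536 genes. Genes passing filterByExpr (15316) were fitted by edgeR 4.0.16 in R 4.3.3 (robust quasi-likelihood, TMM, all 16 libraries, 1 mean per group, 12 residual degrees of freedom) and adjusted by Benjamini-Hochberg over all of them, threshold 0.05. Intervals are 95%. The 10 genes and the lists were chosen with earlier results of these data known. All 10 are named; of each list, the 5 others with the smallest averaged adjusted p and up to 2 that show its spread, plus genes whose call the block changed. Patterns were compared on log2 CPM with a prior count of 2, leaving out genes with Gm-number or Rik symbols. Same-numbered libraries deviated together from their group means (r 0.175 to 0.369), so a replicate block is given where it changed a call of the 10 genes or, averaged over the passages, of a list; r was 0.185 to 0.387 for other numbers within replicates 1 and 2 or 3 and 4, and -0.342 to -0.18 between them. No replicates were duplicates (chi-square per gene at least 1.84). The edgeR fit by group was tested on simulated counts with the same dispersion for every gene and no split of the replicates. The other steps were not tested on simulated data. Motifs were searched in RefSeq windows by letters alone. DESeq2 1.42.0 was an alternative. One gene of a pattern comparison is not reported here.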

Additional observations from a re-analysis of the deposited data

Results flagged for a closer look

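Ankrd1 at passage 4 without DOX had 1 library apart from the other 3: replicate 3 at 457 CPM, against 525 to 538, a gap of 0.834 of the group's range, just past the limit of Dixon's test for 4 values. Over the 10 genes 40 groups of 4 libraries were examined, and chance alone marks about 1 in 20. The Ankrd1 change at passage 4 kept its direction and its call in every fit that left out 1 library.

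Ptpn14, the gene of a phosphatase that restrains YAP and is also on the target list, responded to DOX in a different way at the 2 passages. It went from 373 ± 6.58 to 504 ± 54.3 CPM at passage 4, 0.43 (adjusted p = 1e-04), and from 450.3 ± 22.1 to 406 ± 21.6 at passage 7, -0.15 (adjusted p = 0.11), and the difference of the responses was -0.58 (edgeR interaction, adjusted p = 0.0029). By its averaged value, 0.14 (edgeR, adjusted p = 0.024), it is counted as higher among the upstream regulators and the targets. That count does not describe passage 7. Arhgef17, also on the target list, read -0.042 (adjusted p = 0.65) at passage 4 and -0.34 (adjusted p = 7.6e-05) at passage 7, with a difference of -0.30 (edgeR interaction, adjusted p = 0.049). These were the 2 of the 20 tested targets called for this difference, against 1.19% of all tested genes.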

How the results depend on the processing

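For the 10 genes, DESeq2's test and DESeq2's size factors in edgeR left each direction and call as reported in the 6 comparisons, as did a fit of only the groups compared in the 4 comparisons of 2 groups. The number called with DOX at passage 4 was 3 at an adjusted p under 0.01 (all genes 10.4%) and 3 to 5 when 1 library was left out (13.9% to 17.2%). For the difference of the responses it was 1 with the replicate block (4.67%), 1 with the replicate pair as a term (5.36%), 1 from replicates 1 and 2 alone (7.41%; chosen after seeing the data), and 0 to 1 with 1 library left out (0.685% to 1.48%). For passage without DOX it was 5 with the block (37%), 5 with the pair term (38.3%), 4 from replicates 1 and 2 alone (32.9%), 1 at an adjusted p under 0.01 (14.2%), and 1 to 3 with 1 library left out (21% to 26.4%). Beyond the calls given in the report, the replicate block changed no call of the 10 genes with DOX or between passages. Without a filter Wwtr1 averaged over the passages (-0.12, adjusted p = 0.081) and Amotl2 at passage 4 (-0.28, adjusted p = 0.068) were not called, and Ankrd1 between passages without DOX read -0.011. For passage without DOX, 3 genes were called without a filter (all genes 11.4%) and 2 with it (all genes 25.6%). Leaving out 1 library turned the sign of values near 0 only: Tead1 at passage 4 (-0.0899 to 0.0072), Ccn2 at passage 7 (-0.089 to 0.12) and by passage with DOX (-0.26 to 0.11), Ankrd1 by passage without DOX (-0.053 to 0.0404) and with DOX (-0.026 to 0.11), and the differences of response of Yap1 (-0.068 to 0.018), Ankrd1 (-0.0296 to 0.105) and Wwc1 (-0.067 to 0.041). The headers of the TPM table name another library than the one its values match in 12 of 16 columns, so its groups as headed mix libraries that the count headers place in different groups. So headed, the averaged DOX value was -0.14 for Yap1, 0.089 for Wwtr1, 0.0025 for Ccn1, 0.043 for Wwc1 and 0.063 for Pkd2, the last against its label. Depth limited Lats2 most, at 185 counts or more per library.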

Other observations

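Genes driven by SRF and its cofactors MRTF, which answer to actin and share some targets with YAP, were read the same way. Of 20 listed 18 were tested, of which 7 were lower and 2 higher with DOX averaged over the passages, against 16.6% and 15.7% of all tested genes. Thbs1, a matricellular protein gene, fell from 1317 ± 117 to 732 ± 66.4 CPM (SD, n = 4) at passage 4 and from 1053 ± 115 to 659.9 ± 88.03 at passage 7, a log2 fold change of -0.76 (SE 0.069, adjusted p = 1.4e-07). Vcl, the gene of vinculin, fell as well, -0.56 (SE 0.057, adjusted p = 4.9e-07), and the actin-binding gene Tpm1, -0.39 (adjusted p = 5.6e-06), the actin gene Actg1, -0.29 (adjusted p = 3.1e-06), and Fhl2, -0.38 (adjusted p = 6.5e-06), were lower too. Tpm2 was higher, 0.36 (adjusted p = 0.011), and Srf itself did not pass, at -0.045 (adjusted p = 0.62). With the replicate block 8 were lower and 3 higher (all genes 21.7% and 20.2%), with Zyx (-0.14, adjusted p = 0.18 without and 0.0025 with the block) and Mrtfa (0.087, 0.13 and 0.037) added.

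Of 10 AP-1 subunit genes, whose products often sit with TEAD at enhancers, 8 were tested. With DOX averaged over the passages 2 were lower and none higher, against 16.6% and 15.7% of all tested genes. Fosl2 went from 198 ± 19.4 to 163 ± 8.03 CPM at passage 4 and from 214 ± 6.84 to 148 ± 11.9 at passage 7, -0.41 (SE 0.048, adjusted p = 2.6e-06). Jun was lower by the averaged test, -0.30 (adjusted p = 0.0087), and read -0.49 (adjusted p = 0.0066) at passage 4 and -0.12 (adjusted p = 0.53) at passage 7. Junb, -0.25 (adjusted p = 0.15), and Fosl1, -0.14 (adjusted p = 0.26), did not pass. Atf3 read 0.36 (adjusted p = 0.4) and was 1.08 higher on the log2 scale in replicates 3 and 4 than in 1 and 2. With the replicate block it was called higher (adjusted p = 0.00017), which made 2 lower and 1 higher (all genes 21.7% and 20.2%).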
